A study of Mus musculus with 15 samples.

Results

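The MS4A genes examined here were Ms4a7, Ms4a6d, Ms4a6c, Ms4a6b, Ms4a4a, Ms4a4c, Ms4a4d and Ms4a4b, the myeloid and lymphoid members of the membrane-spanning 4-domains subfamily A. They were taken by name from a count table of 32543 entries, by a rule that uses no measured value. The list itself was chosen with earlier results of these data known. All 8 passed the filter on low counts that left 15494 genes for testing. RNA came from whole subcutaneous fibrosarcomas grown from WEHI-164 cells, an established mouse tumor line, in female wild-type (WT) BALB/c mice. The 3 day 0 tumors were untreated. The other 12 received poly(I:C), a synthetic double-stranded RNA sensed mainly by Toll-like receptor 3, into the tumor every day, and 3 tumors were taken on each of days 1, 3, 5 and 7. The labels give 1 µg in 25 µL per injection and a planned 6 doses, whereas the supplement of the study names a larger dose per day, so the amount was uncertain. The labels name no vehicle-treated group taken at the same times and call the day 0 tumors untreated, although a legend of the study speaks of vehicle, so treatment, injection and time in the mouse cannot be told apart. The study's methods give an age range at purchase for its mice as a whole, and the labels give none for these animals. The comparisons asked how the MS4A genes moved over the days of treatment.

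MS4A genes encode small proteins that cross the membrane several times and sit beside other receptors at the surface or in endosomes of blood cells. The best known members are the B cell antigen CD20, which is Ms4a1, and the beta chain of the high-affinity IgE receptor of mast cells and basophils, which is Ms4a2. Ms4a7, Ms4a4a and the Ms4a6 genes are known mainly from macrophages and monocytes, Ms4a4c from monocytes and interferon-treated myeloid cells, and Ms4a4b from T cells, where its protein has been linked to the control of proliferation.

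All 8 genes lie in a single cluster on chromosome 19, between positions 11321039 and 11604849 of GRCm38 (GENCODE M21), a stretch of 283.8 kb. Ms4a7 and Ms4a6d are at the outer ends on the minus strand, and the other 6 are on the plus strand. The cluster grew by duplication, so parts of the transcripts are alike. Of all 31-base words in its transcripts, Ms4a4a shared 0% with any other annotated gene, Ms4a7 shared 1.42% and Ms4a4d 3.44%. Ms4a4b shared 5.46%, Ms4a6b 7.90%, Ms4a6d 8.11% and Ms4a4c 17.1%. Within the family, the most words were shared by Ms4a6b and Ms4a6c (281) and by Ms4a4b and Ms4a4c (227). Ms4a6c shared 58.1%, of which 1031 words belonged to BE692007, a noncoding gene on the opposite strand across Ms4a6c. The count table held no entry of that name, and the transcript set used for counting was not given. With other members of the 8, Ms4a6c shared 14.2% of its words. Reads from shared words are divided by estimation among the transcripts in the set. The counts of Ms4a6c and of each pair were therefore uncertain, to an extent that depends on that set.

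Promoter sequences are shown for the paralog pairs Ms4a4c and Ms4a4b and Ms4a6c and Ms4a6b, because Ms4a4c did not overlap with day 0 on day 1 while Ms4a4b did, and because the Ms4a6 pair had the highest correlation of all pairs. They are RefSeq sequences on GRCm38.p6, plus strand, from 250 bases before to 50 bases after the RefSeq start, at chr19:11407411-11407710 for Ms4a4c, chr19:11443308-11443607 for Ms4a4b, chr19:11469118-11469417 for Ms4a6c and chr19:11518309-11518608 for Ms4a6b. Capitals mark GAAANNGAA, the core of an interferon-stimulated response element, and AGGAAGT, an ETS motif of the kind bound by PU.1, on either strand.
Ms4a4c: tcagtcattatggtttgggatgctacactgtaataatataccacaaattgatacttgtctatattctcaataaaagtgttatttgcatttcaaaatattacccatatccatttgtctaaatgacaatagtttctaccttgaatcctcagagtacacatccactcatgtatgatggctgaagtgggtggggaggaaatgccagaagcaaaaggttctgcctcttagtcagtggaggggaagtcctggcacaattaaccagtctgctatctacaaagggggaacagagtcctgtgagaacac
Ms4a4b: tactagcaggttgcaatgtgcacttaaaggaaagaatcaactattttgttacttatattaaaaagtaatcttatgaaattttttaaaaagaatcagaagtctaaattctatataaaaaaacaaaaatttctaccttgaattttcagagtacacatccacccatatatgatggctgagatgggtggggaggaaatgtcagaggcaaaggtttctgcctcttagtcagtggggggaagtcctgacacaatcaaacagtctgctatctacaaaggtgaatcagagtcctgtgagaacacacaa
Ms4a6c: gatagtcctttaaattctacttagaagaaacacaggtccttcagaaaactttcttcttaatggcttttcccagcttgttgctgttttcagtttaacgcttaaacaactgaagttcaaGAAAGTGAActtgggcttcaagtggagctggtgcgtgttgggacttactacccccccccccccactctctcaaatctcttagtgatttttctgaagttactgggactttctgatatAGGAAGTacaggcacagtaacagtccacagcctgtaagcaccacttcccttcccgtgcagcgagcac
Ms4a6b: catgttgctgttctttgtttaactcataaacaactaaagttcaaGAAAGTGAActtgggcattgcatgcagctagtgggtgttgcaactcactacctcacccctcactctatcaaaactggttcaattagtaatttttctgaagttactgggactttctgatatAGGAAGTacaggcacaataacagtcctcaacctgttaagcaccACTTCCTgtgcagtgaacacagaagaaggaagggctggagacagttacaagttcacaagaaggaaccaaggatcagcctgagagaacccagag

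In a local alignment the Ms4a4c and Ms4a4b promoters were identical at 229 of 301 aligned columns (76.1%), and those of Ms4a6c and Ms4a6b at 193 of 234 (82.5%). Promoters were found for 7 of the 8 genes, and no other pair among them had an alignment score near these. The letters GAAANNGAA occurred in the windows of Ms4a6c, Ms4a6b and Ms4a7 and in 8.56% of 32851 mouse promoters of this length. In Ms4a6c and Ms4a6b the match was the same GAAAGTGAA, at 133 and 206 bases before the start. AGGAAGT occurred in the windows of Ms4a6c and Ms4a6b, once and at a pair of places, and in 9.35% of all promoters. The interferon-gamma activated site TTCNNNGAA was in none of the windows and in 8.30% of all promoters. No overlap between motifs was seen in the marked sequences. These matches describe letters only, and a window without a match says nothing of the factor.

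Total counts ran from 23.7 to 31.9 mega-counts per tumor, so 3 counts, the limit that a count of 0 allows, stood for 0.094 to 0.126 CPM, a count scaled to a common library total with TMM factors. Day 3 replicate 1 stood apart, with a first principal component of 144.5 against -77.0 to 45.1 in the other tumors and a summed level of 6 skeletal muscle genes of 2232 CPM against at most 141.1 CPM elsewhere. Day 1 replicate 3 had the highest summed level of 10 interferon response genes, at 2964 CPM against 728.5 and 932.5 CPM in the other day 1 tumors. The labels do not tie tumors to mice, but the study's legend counts its replicates in mice, so p-values measure the spread between tumors of different mice. In bulk tumor RNA, fewer cells of a type and less RNA per cell cannot be told apart.

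The MS4A genes were highest on day 3 and near their untreated level by day 7. On day 3, all 8 had a higher mean than on day 0, by 0.66 to 2.35 on the log2 scale, with a median log2 fold change of 1.53 against -0.02 over all genes tested. In 7 of the 8, everything but Ms4a4a, the lowest day 3 tumor was above the highest day 0 tumor, a separation seen upward in 19.4% of all genes. The same 7 had an unadjusted p under 0.05, as did 18.3% of all genes in the upward direction.

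After adjustment over all genes, edgeR called 0 of the 8 on day 3, as it called 0% of all genes in this comparison. Adjusted p-values of the 8 ran from 0.115, which was the lowest of any gene, to 0.284. At an unadjusted p under 0.05 the edgeR test passed 4654 genes, and DESeq2 called 2003. DESeq2 called 6 of the 8, leaving out Ms4a4a and Ms4a6d, against 9.43% of all genes called upward. Without day 3 replicate 1, DESeq2 called 85 genes and 1 of the 8, Ms4a4d, and edgeR called 0 genes. By edgeR 5 of the 8 then had an unadjusted p under 0.05. The share of all genes at that p in this setting is not given here, so this count has no background beside it.

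**Figure D1:**
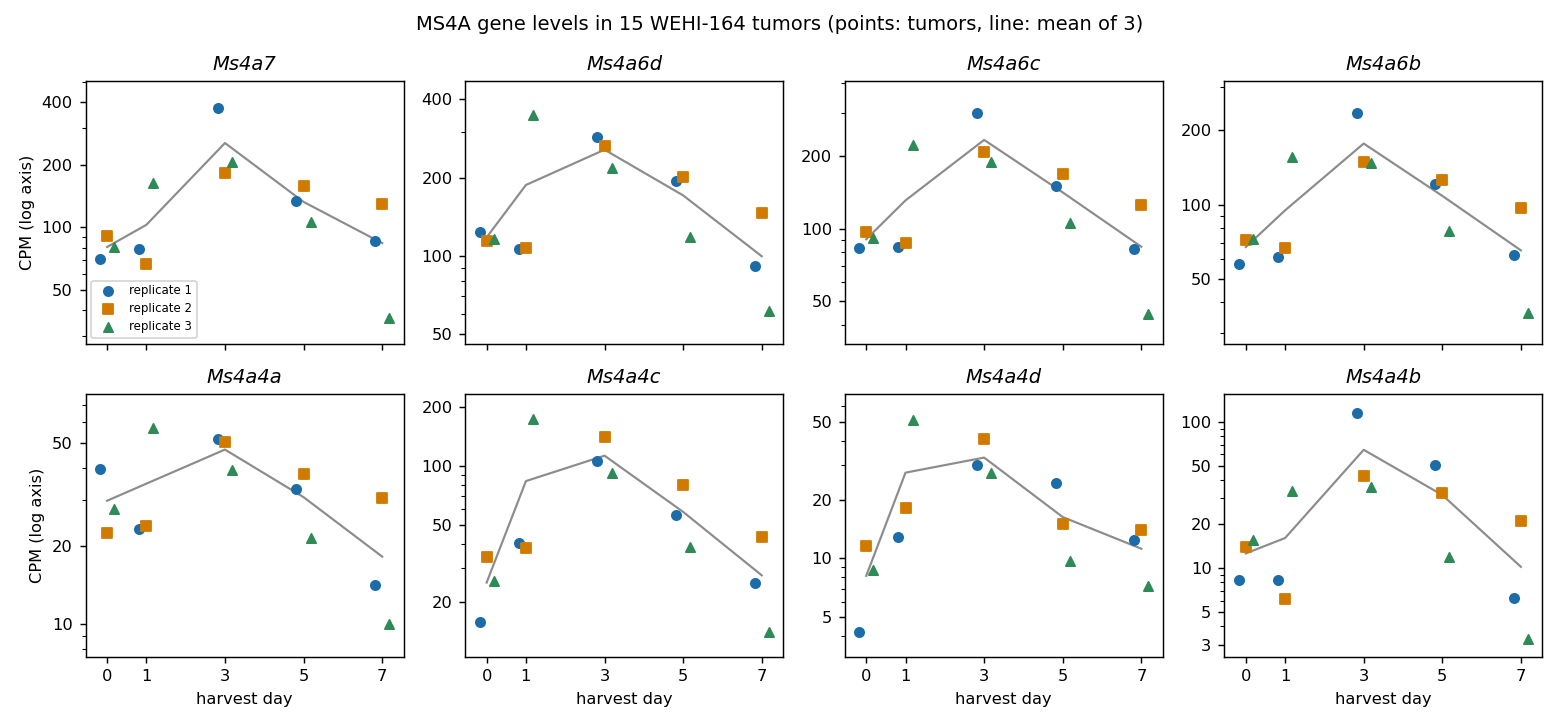
Level of each MS4A gene in CPM (log axis) by harvest day, with 1 point per tumor, shaped by replicate number, and a line through the mean of 3 tumors. All 8 means peak on day 3. Day 1 replicate 3 lies above both other day 1 tumors in every panel.

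Ms4a7, a macrophage gene of the family, measured 70.8, 90.6 and 80.1 CPM in the untreated tumors. On day 3 it measured 373.5, 182.7 and 206.2 CPM. Every day 3 tumor was thus above every untreated tumor, with replicate 1 well above the other two. The log2 fold change was 1.66 ± 0.44 (SE; edgeR adjusted p = 0.115; DESeq2 adjusted p = 0.0108), or 1.28 without day 3 replicate 1. On day 1 it stood at 78.9, 66.7 and 162.9 CPM, so replicate 3 alone exceeded the untreated range.

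Ms4a6d, expressed by macrophages and monocytes, had the tightest untreated level of the family, at 123.1, 114.3 and 115.9 CPM. Day 1 gave 106.6, 107.1 and 347.9 CPM, which placed replicates 1 and 2 below and replicate 3 far above every untreated tumor. Day 3 gave 285.0, 264.4 and 218.0 CPM, and these did not overlap with day 0. The day 3 log2 fold change of Ms4a6d was 1.12 ± 0.43 (SE; edgeR adjusted p = 0.129; DESeq2 adjusted p = 0.0530).

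Ms4a6c and its paralog Ms4a6b moved almost in parallel. Ms4a6c measured 82.9, 96.4 and 91.7 CPM on day 0 and 302.0, 207.4 and 188.7 CPM on day 3. Ms4a6b measured 57.5, 71.8 and 72.3 CPM on day 0 and 235.3, 148.8 and 146.9 CPM on day 3. Neither gene's groups overlapped. Log2 fold changes were 1.37 ± 0.41 for Ms4a6c and 1.40 ± 0.40 for Ms4a6b (SE), with adjusted p = 0.115 for both by edgeR and 0.0187 and 0.0159 by DESeq2. Over the 15 tumors the log2 CPM of this pair had a Pearson r of 0.996, the highest of all pairs among the 8, and 0.994 without day 3 replicate 1. The points share libraries, and the pair shares sequence as given above.

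Ms4a4a, a marker of alternatively activated macrophages, had untreated levels that reached into its day 3 range. It measured 39.65, 22.3 and 27.7 CPM on day 0 and 51.9, 50.2 and 39.3 CPM on day 3. The ranges overlapped because day 0 replicate 1 was just above day 3 replicate 3, and the log2 fold change of 0.66 ± 0.43 (SE; edgeR adjusted p = 0.284) was the smallest of the 8. On day 7 it measured 14.1, 30.5 and 9.95 CPM. Its day 7 log2 fold change against day 0, -0.72 ± 0.43 (SE; edgeR adjusted p = 1), was the lowest of the 8 with all tumors in the fit, and its ranges overlapped too. Without day 7 replicate 2 it was -1.31, and that of Ms4a4b was then lower, at -1.40.

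Ms4a4c and Ms4a4d were the members already higher on day 1. Ms4a4c, known from monocytes and responsive to interferon in myeloid cells, measured 15.9, 34.2 and 25.8 CPM on day 0 and 40.2, 37.8 and 173.2 CPM on day 1. Ms4a4d, a close relative with a less studied role, measured 4.18, 11.5 and 8.73 CPM on day 0 and 12.9, 18.1 and 51.4 CPM on day 1. In both genes each day 1 tumor was above each untreated tumor, narrowly for replicates 1 and 2 and widely for replicate 3. The other 6 had overlapping ranges, with day 1 log2 fold changes of 0.22 to 0.67, all of them negative without day 1 replicate 3. The interferon response sum was 379.4 to 486.7 CPM on day 0 and 728.5 to 2964 CPM on day 1, likewise highest in replicate 3, and its part in these levels was not tested.

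On day 1 the log2 fold change was 1.73 ± 0.58 for Ms4a4c and 1.76 ± 0.53 for Ms4a4d (SE; edgeR adjusted p = 1 for both). These 2 of the 8 were the members with an unadjusted p under 0.05 and with no overlap, where 2.18% of all genes had such a p upward and 5.76% had no overlap upward. The edgeR test called 0 of the 8 and 0% of all genes on day 1, with 489 genes at an unadjusted p under 0.05, while DESeq2 called 40 genes, 37 of them upward (0.240% of all), and 0 of the 8. Without day 1 replicate 3 the log2 fold changes were 0.63 for Ms4a4c and 0.94 for Ms4a4d, and 0 members had a p under 0.05.

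On day 3 Ms4a4c reached 105.6, 141.4 and 92.1 CPM, and Ms4a4d 30.2, 41.0 and 27.3 CPM. Neither overlapped with day 0, and unlike in Ms4a7 the highest tumor was replicate 2. The log2 fold changes were 2.16 ± 0.59 for Ms4a4c and 2.01 ± 0.53 for Ms4a4d (SE; edgeR adjusted p = 0.115 for both). DESeq2 gave an adjusted p = 0.00989 for both.

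Ms4a4b, the T cell member, had the lowest level per length and, on each treated day, the widest spread relative to its mean. It measured 8.26, 14.0 and 15.5 CPM on day 0 and 8.29, 6.14 and 33.8 CPM on day 1. Day 3 brought 114.9, 42.6 and 35.9 CPM, all above the untreated range, with replicate 1 again far ahead. The day 3 log2 fold change, 2.35 ± 0.82 (SE; edgeR adjusted p = 0.117; DESeq2 adjusted p = 0.0249), was the largest of the 8 and came to 1.65 without day 3 replicate 1. On day 5 it measured 50.5, 32.6 and 11.9 CPM, and the third tumor was back within the untreated range.

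**Figure D2:**
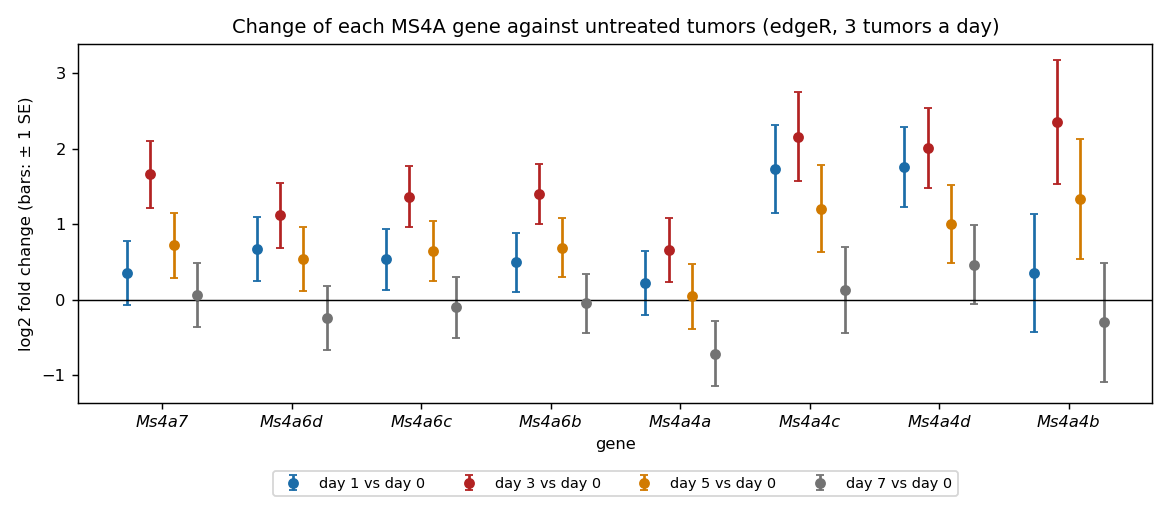
Log2 fold change of each MS4A gene on days 1, 3, 5 and 7 against the 3 untreated tumors, with bars of 1 SE from the edgeR fit. Day 3 is the highest point for each gene. Day 1 comes close to day 3 in Ms4a4c (1.73 and 2.16) and Ms4a4d (1.76 and 2.01).

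Day 5 was intermediate. Log2 fold changes against day 0 ran from 0.05 in Ms4a4a to 1.33 in Ms4a4b, with a median of 0.71. Ms4a4c, Ms4a6b, Ms4a6c and Ms4a7 did not overlap with day 0, 4 of the 8 against 6.89% of all genes upward. No member had an unadjusted p under 0.05, where 1.41% of all genes did upward. The edgeR test called 0 members and 0% of all genes (744 at an unadjusted p under 0.05), and DESeq2 called 0 members and 11 genes, 3 of them upward (0.0202% of all).

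By day 7 the median log2 fold change against day 0 was -0.07, with values from -0.72 in Ms4a4a to 0.46 in Ms4a4d, and the ranges of all 8 overlapped with the untreated ones. The upward share without overlap was 5.02% over all genes. None of the 8 had an unadjusted p under 0.05 (1.05% of all genes upward). Called genes came to 0% by edgeR, with 320 at an unadjusted p under 0.05, and to 5 by DESeq2, of which 3 were upward (0.0195% of all) and 0 were members.

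Against day 3, all 8 were lower on day 7, and no day 7 tumor reached the lowest day 3 tumor. That separation downward was seen in 18.4% of all genes. Log2 fold changes ran from -2.65 in Ms4a4b to -1.36 in Ms4a6d, with a median of -1.51 against 0.02 over all genes. Leaving out day 7 replicate 2 moved Ms4a4b to -3.75 and Ms4a4a to -1.97, while leaving out day 3 replicate 1 moved Ms4a4b to -1.93. Each of the 8 had an unadjusted p under 0.05 by edgeR, as did 22.6% of all genes downward. Adjusted p-values ran from 0.0832 to 0.0859, so 0 of the 8 and 0% of all genes were called (5502 at an unadjusted p under 0.05). DESeq2 called 3260 genes, with all 8 members among them, against 15.4% of all genes downward. Without day 3 replicate 1 it called 93 genes and 0 of the 8. With day 3 replicate 3 left out, edgeR called 2104 genes and 5 of the 8 (Ms4a4b, Ms4a4c, Ms4a6b, Ms4a6c and Ms4a7). A joint test of the 4 treated days gave 7 of the 8 an unadjusted p under 0.05, against 16.2% of all genes, and edgeR called 0 members and 0% of all genes (2509 at an unadjusted p under 0.05). DESeq2 called 6 members in that test against 7.63% of all genes, and 1 of the 181 genes it called without day 3 replicate 1 was a member. In that setting 2 members had an unadjusted p under 0.05 by edgeR, again with no share of all genes beside it, and edgeR called 0 genes.

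Compared per kilobase of the longest coding transcript, Ms4a6d had the highest level in untreated tumors, at 83.1 ± 3.31 CPM per kb (SD, n = 3). Ms4a7 at 51.1 ± 6.28 and Ms4a6c at 49.1 ± 3.72 CPM per kb followed and did not differ beyond their spread. Ms4a4a at 35.8 ± 10.6 and Ms4a6b at 25.1 ± 3.12 CPM per kb had overlapping ranges, as had Ms4a4a and Ms4a6c. Below them came Ms4a4c at 14.7 ± 5.32, Ms4a4d at 5.38 ± 2.44 and Ms4a4b at 2.66 ± 0.808 CPM per kb, where the ranges of the last pair overlapped. On day 3 Ms4a6d (180.4 ± 24.2), Ms4a7 (161.3 ± 66.0) and Ms4a6c (126.4 ± 33.0 CPM per kb) overlapped, and Ms4a4b stayed lowest at 13.6 ± 9.22 CPM per kb. The order depends on the length used, since dividing by all merged exons put Ms4a7 at 18.1 CPM per kb on day 0, below Ms4a4a.

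Levels were set beside marker lists of the cell types in which these genes are known. These lists, too, were chosen with earlier results of the data known. A sum over 10 macrophage markers, all of them tested, spanned 1625 to 1747 CPM in untreated tumors and 1269 to 2528 CPM on day 1. It spanned 2586 to 6741 CPM on day 3, then 1803 to 2953 on day 5 and 1086 to 2324 on day 7. The sum over 10 T cell markers, again all tested, was 32.0 to 43.6 CPM on day 0 and 23.7 to 82.9 on day 1. It reached 89.2 to 339.6 CPM on day 3, then 28.4 to 185.9 on day 5 and 11.04 to 58.2 on day 7. In both lists the highest tumor was day 3 replicate 1. On day 3, 8 of the 10 macrophage markers and 9 of the 10 T cell markers had an unadjusted edgeR p under 0.05 upward. Over all genes that share was 18.3%. The edgeR test called 0 of either list and 0% of all genes. DESeq2 called 8 of the macrophage and 7 of the T cell markers upward, against 9.43% of all genes. Members of the macrophage list differed, among them Mrc1 and Cd163, which encode the mannose receptor and a scavenger receptor. Their edgeR log2 fold changes were -0.92 ± 0.34 and -1.36 ± 0.68 on day 1 (SE). On day 3 they were -0.39 ± 0.34 and 0.55 ± 0.66, and on day 5 -0.74 ± 0.34 and -1.45 ± 0.68 (SE). The edgeR test called neither gene on these days. The part of cell number in the MS4A levels was not tested.

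The proportion of Ms4a4b to the T cell markers of the same tumor had overlapping ranges on all days. Its CPM was 31.4 ± 5.07% of their sum in untreated tumors, 33.6 ± 7.46% by day 1 and 38.7 ± 7.86% at the day 3 peak. The values for days 5 and 7 were 33.9 ± 7.36% and 35.4 ± 5.09% (SD, n = 3 throughout). Single tumors ran from 25.8 to 47.8%, while the T cell sum itself spanned 11.04 to 339.6 CPM. Against the macrophage sum Ms4a7 was 4.73 ± 0.421% in untreated tumors, 5.63 ± 1.21% on day 1 and 6.43 ± 0.793% on day 3. It was 5.54 ± 0.304% on day 5 and 4.60 ± 1.10% by day 7. Days 3 and 5 lay above the untreated range without overlap, and single tumors ran from 3.39 to 7.07%. Relative to the same sum, Ms4a4b on day 3 and Ms4a4c, Ms4a6b and Ms4a6c on day 5 were also above day 0 without overlap. The macrophage sum includes Mrc1, whose mean was 300.6 CPM on day 0, 229.7 on day 3 and 180.2 on day 5. Its part in these proportions was not tested.

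Ms4a4c and Ms4a4d were higher on day 1 than on day 0 relative to macrophage markers. Ms4a4c was 0.977 to 1.96% of the macrophage sum on day 0 and 2.40 to 6.85% on day 1, with no overlap. Ms4a4d was 0.257 to 0.659% on day 0 and 1.02 to 2.03% on day 1, again with no overlap. On day 3 both spread widely, from 1.57 to 5.47% for Ms4a4c, and the lowest value in both was that of replicate 1. By day 7 Ms4a4c was back at 1.29 to 1.87%. Day 1 was also above day 0 without overlap in Ms4a6b and Ms4a6c, narrowly. Ms4a6b was 3.54 to 4.18% of the macrophage sum on day 0 and 4.22 to 6.19% on day 1. Ms4a6c was 5.10 to 5.52% on day 0 and 5.53 to 8.74% on day 1. Mrc1, in the macrophage sum, was 197.7 to 458.9 CPM on day 0 and 125.8 to 185.6 CPM on day 1, without overlap. Its part in these day 1 proportions was not tested. No share over all genes was set beside these separations.

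**Figure D3:**
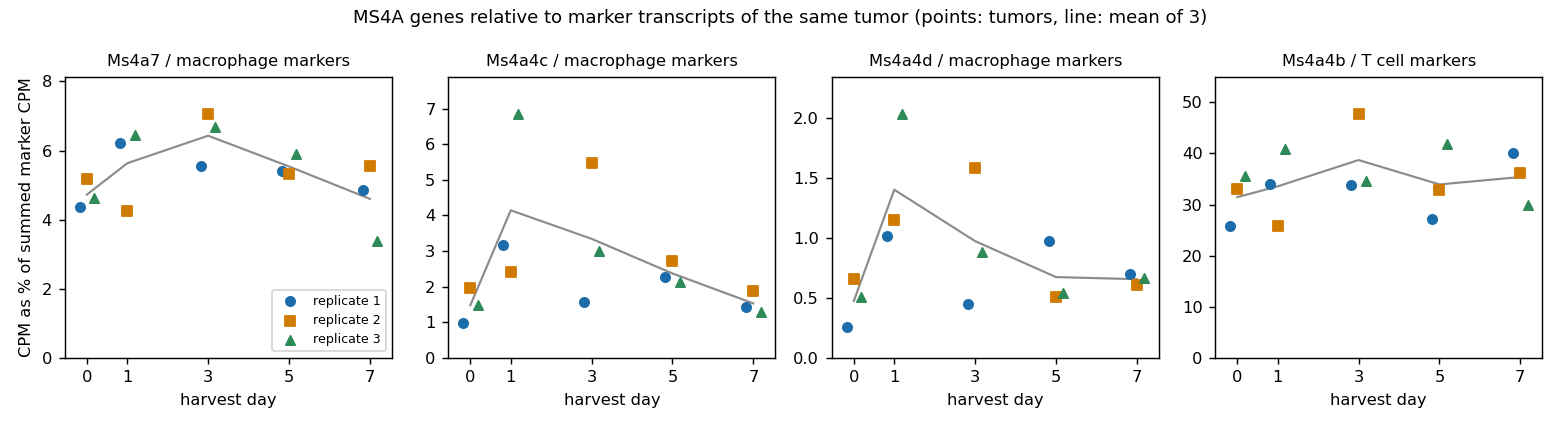
CPM of an MS4A gene as a percentage of the summed CPM of cell type markers in the same tumor, by harvest day, with 1 point per tumor and a line through the mean of 3. Ms4a4b stays between 25.8% and 47.8% of the T cell sum throughout, while Ms4a4c and Ms4a4d are higher on day 1 than on day 0 relative to macrophage markers.

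Described over the 15 tumors as log2 CPM, Ms4a4b had its highest correlation with the T cell sum (r = 0.98, against 0.92 for the macrophage sum), and Ms4a7 with the macrophage sum (r = 0.95, against 0.90 for the T cell sum). For Ms4a4c and Ms4a4d the closest of the lists compared was the interferon response sum, with r = 0.89 and r = 0.86. The next was the sum of 7 NK and cytotoxic genes, with r = 0.85 and 0.76, and the macrophage sum gave 0.74 and 0.63. Ms4a4a and Ms4a6d were closest to the NK and cytotoxic list, with r = 0.92 and 0.93. For Ms4a6c the macrophage list and the NK and cytotoxic list both gave r = 0.92, and the macrophage list was the closer without day 3 replicate 1 (0.93 against 0.92). With the sum of 7 monocyte markers the r of the 8 ran from 0.60 in Ms4a4c to 0.68 in Ms4a6d, and from 0.41 to 0.62 without day 3 replicate 1. That sum was 604.2 to 663.8 CPM on day 0 and 612.7 to 946.8 CPM on day 3, with overlap, and 4 of its genes had an unadjusted edgeR p under 0.05 upward on day 3 and 1, Vcan, downward (log2 fold change -0.83 ± 0.22, SE). Ms4a6b, which has also been described in T cells, had r = 0.93 for both the macrophage and the T cell sum. Its proportion to the macrophage sum ran from 3.67 to 5.08% over the day means, and that to the T cell sum from 125.7 to 297.7%. All points share libraries and the same few high and low tumors, so these values describe the set and rank no source.

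**Figure D4:**
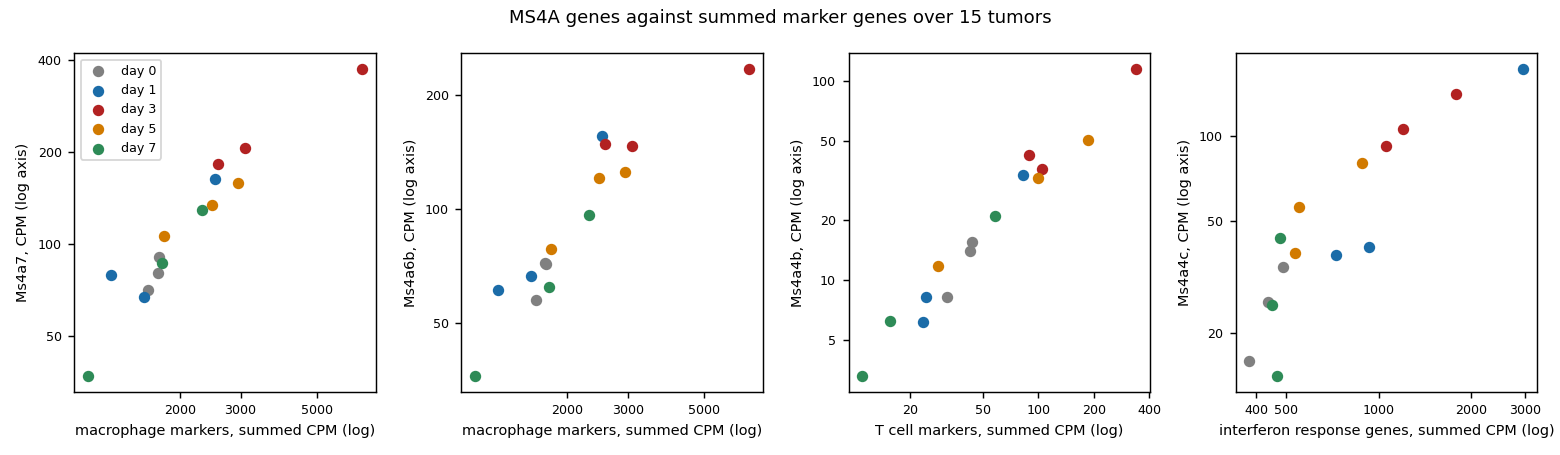
Level of Ms4a7, Ms4a6b, Ms4a4b and Ms4a4c in CPM against the summed CPM of a marker list, both on log axes, with 1 point per tumor colored by harvest day (n = 15). Ms4a4b and the T cell sum lie close to a line, and in the panel of Ms4a4c the 5 highest interferon sums are all from day 1 and day 3 tumors.

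Ratios within a tumor compare members in the same library, and the part of the mix of immune cells in them was not tested. The log2 ratio of Ms4a4c to Ms4a7 was -2.15, -1.40 and -1.63 on day 0 and -0.97, -0.82 and 0.09 on day 1. Every day 1 tumor was higher, by 1.16 in the mean, with an exact two-sided permutation p = 0.1, the smallest that 3 tumors against 3 allow, so the design could not reach 0.05. On days 3, 5 and 7 the ratio exceeded its day 0 mean by 0.61, 0.50 and 0.15 (exact permutation p = 0.3, 0.2 and 0.6). The ratio of Ms4a4b to Ms4a7, a lymphoid against a macrophage member, differed from day 0 by -0.27, 0.61, 0.43 and -0.57 on days 1, 3, 5 and 7 (exact permutation p = 0.6, 0.2, 0.5 and 0.3).

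A pair of ratios was added after the values were seen. The log2 ratio of Ms4a4c to its paralog Ms4a4b was 0.94, 1.28 and 0.73 on day 0 and 2.27, 2.61 and 2.35 on day 1, a difference of 1.43 that all 3 day 1 tumors shared (exact permutation p = 0.1, the smallest possible). On day 3 the difference was 0.01 (exact permutation p = 1). The ratio of Ms4a4d to Ms4a7 was higher by 1.36 on day 1, again without overlap (exact permutation p = 0.1), and by 0.51 on day 3 (exact permutation p = 0.4). The 4 ratios on 4 days made 16 comparisons, and Benjamini-Hochberg adjustment of their exact permutation p-values left none under 0.533. Since the Ms4a4c to Ms4a4b ratio was picked for its day 1 values, it is a description of these tumors.

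Genes outside the family with the most similar pattern were sought among 15480 genes by Pearson r of log2 CPM over the 15 tumors, as a description. Ms4a7 was most like Clec4a3 (r = 0.99) and Clec4a1, which encode C-type lectins of myeloid cells. Ms4a6b and Ms4a6c both had Tlr13, an endosomal sensor of bacterial RNA, as their nearest gene (r = 0.99 for each), followed by Clec4a1. The third was Gm15922 for Ms4a6b and the complement receptor gene C3ar1 for Ms4a6c. Ms4a6d was nearest to Lilr4b (r = 0.98), Lilrb4a and Slc7a8.

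Ms4a4b was nearest to Ptprcap (r = 0.99), which encodes a partner of CD45 in lymphocytes, then to the NK receptor gene Klrc1. Ms4a4c was nearest to Phf11a (r = 0.98), the Fc receptor gene Fcgr1 and an entry named PYHIN1, and Ms4a4d to Phf11b (r = 0.96), Phf11a and Parp11. Ms4a4a was nearest to the chemokine gene Ccl8 (r = 0.95), to Gzma, which encodes granzyme A, and to Gm15056. Without day 3 replicate 1 the r of these nearest genes was 0.960 or above, and 5 of the 8 had another gene as the nearest.

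Of 12 other genes of the family, 6 passed the filter, and the other 6 (Ms4a3, Ms4a5, Ms4a10, Ms4a13, Ms4a15 and Ms4a18) had at most 4 counts in any tumor. The median day 3 log2 fold change of the 6 was 1.17. Of these, 3 had an unadjusted edgeR p under 0.05, against 18.3% of all genes upward. The edgeR test called 0 of them and 0% of all genes. DESeq2 called 1, against 9.43% of all genes upward. Ms4a14, next to Ms4a7 on the chromosome, measured 13.7, 11.99 and 14.2 CPM on day 0 and 31.6, 23.0 and 28.9 CPM on day 3, without overlap (log2 fold change 1.07 ± 0.36, SE; edgeR adjusted p = 0.115; DESeq2 adjusted p = 0.0366). Ms4a8a measured 2.36, 2.94 and 2.36 CPM on day 0 and 11.4, 10.6 and 7.00 CPM on day 3 (log2 fold change 1.92 ± 0.96, SE; edgeR adjusted p = 0.189). The mast cell gene Ms4a2 was higher by 1.27 ± 0.58 (SE; edgeR adjusted p = 0.164) and the B cell gene Ms4a1 by 1.46 ± 0.51 (SE; edgeR adjusted p = 0.118), the latter with overlap and at most 63 counts in a tumor. Tmem176a and Tmem176b, distant relatives on chromosome 6, had overlapping ranges and log2 fold changes of 0.41 ± 0.22 and 0.30 ± 0.18 (SE). Over the 15 tumors Ms4a2 had its closest list in 6 mast cell and basophil markers (r = 0.99), and Ms4a1 in 5 B cell markers (r = 0.86, or 0.66 without day 3 replicate 1).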

How the data were processed

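For 15 tumors poly(A) RNA was sequenced as single-end reads. The authors estimated transcript abundance with kallisto on GRCm38 (mm10) and summed transcripts to genes with tximport. The values deposited by the authors are estimated counts, already whole, in a column for each tumor. The transcript set and the strandedness of counting were not given in the sources used here. An entry named as a date, with at most 0.0268% of a tumor's counts, was left out.

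The 8 genes, the marker lists and the other family genes were chosen with earlier results of these data known. The text names the 8 genes, the other tested family genes, the 3 most similar genes for each of the 8 (some are not reported here), and genes sharing 31-base words with them. Groups and replicate numbers came from the labels. Genes above 0.366 CPM in at least 3 tumors were tested in edgeR 4.0.16 under R 4.3.3. All 15 tumors entered a single quasi-likelihood model of harvest day, scaled by TMM, with two-sided F tests and Benjamini-Hochberg adjustment over 15494 genes, called at adjusted p under 0.05. An SE is the log2 fold change divided by the square root of its F. DESeq2 1.42.0, RLE size factors, no filter, a replicate block, a prior count of 0.5 and each tumor left out were alternatives. Ratios used log2 CPM with a prior count of 2. The fit was tested on simulated data. Gene models were from GENCODE M21 and promoters from RefSeq. Limits from a count of 0 cover counting error only.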

Additional observations from a re-analysis of the deposited data

How the results depend on the processing

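With 3 tumors a day, the calls depended on the tool. DESeq2 called 6 of the 8 genes on day 3, 8 for day 7 against day 3 and 6 in the joint test, where edgeR called 0. With DESeq2 and day 3 replicate 1 left out, 1 gene was called on day 3 (median log2 fold change 1.21), 1 in the joint test and 0 for day 7 against day 3. RLE size factors, no filter and the replicate block moved no call of the 8. Whether the replicate numbers pair the tumors was not settled. Of 30 same-numbered pairs, 9 had correlated deviations above 0.1 (range -0.62 to 0.51), with no differently numbered pairs for comparison. The replicate block left 0 of the 8 called on day 3, but the main fit had called 0% of all genes there too.

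Leaving out 1 tumor at a time, the number called by edgeR for day 7 against day 3 ranged from 0 to 5, and the day 3 median log2 fold change from 1.21 (without day 3 replicate 1) to 1.67. Values near 0 changed sign. The day 1 log2 fold changes that turned negative, each without day 1 replicate 3, ranged from -0.34 to 0.48 for Ms4a4a, -0.80 to 0.74 for Ms4a4b, -0.0701 to 0.73 for Ms4a6b, -0.0738 to 0.77 for Ms4a6c, -0.14 to 0.95 for Ms4a6d and -0.14 to 0.59 for Ms4a7. The day 5 value of Ms4a4a ranged from -0.13 to 0.30. Day 7 values ranged from -1.40 to 0.12 for Ms4a4b, -0.36 to 0.44 for Ms4a4c, -0.45 to 0.24 for Ms4a6b, -0.51 to 0.20 for Ms4a6c, -0.63 to 0.0133 for Ms4a6d and -0.39 to 0.42 for Ms4a7, with the lowest values without day 7 replicate 2. Differences of log2 ratios from day 0 ranged from -0.0019 to 0.87 for Ms4a4b to Ms4a7 on day 5, -0.0586 to 0.31 for Ms4a4c to Ms4a7 on day 7, -0.0225 to 0.52 for Ms4a4d to Ms4a7 on day 5, and -0.36 to 0.56 and -0.26 to 0.51 for Ms4a4c to Ms4a4b on days 3 and 5. The cause of these changes was not tested.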
